A study of Mus musculus with 6 samples.

Results

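The DNA replication and S-phase genes comprised 48 genes, selected by symbol for their roles in copying the genome, among 34745 genes in the deposited tables. They were 6 subunits of the origin recognition complex, 2 helicase loaders, 6 subunits of the MCM helicase, 6 factors of helicase activation, 8 subunits of the polymerases and primase, and 6 genes of the sliding clamp and its loader. The others were 3 subunits of the single-strand binding protein RPA, 2 enzymes of Okazaki fragment processing, 4 enzymes of nucleotide supply, 3 regulators of S-phase entry and 2 subunits of a histone chaperone. Of the 48 genes, 47 passed the filter on low counts. Ccne1, with 7, 23 and 1 counts in WT and 1, 7 and 2 counts in KO, did not.

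The transcriptomes of hematopoietic stem cells (HSCs) from WT and Med23-deficient (KO) adult C57BL/6 mice were compared to ask what loss of the mediator subunit Med23 does to HSC gene expression. Bulk RNA-seq was carried out on 3 libraries per group, made from bone marrow cells sorted as LSK (lineage-negative, Sca1-positive, cKit-positive) CD150+CD34-CD48- cells. WT mice carried the floxed Med23 alleles without Cre by their label, and KO mice carried the same floxed alleles with Mx1-cre. The study's methods induce deletion with poly(I:C). They do not say whether the WT mice used for these libraries received it. Mx1-cre is driven by an interferon-inducible promoter, poly(I:C) itself raises an interferon response, and recombination is not limited to HSCs. The sample labels name SMART-Seq v4 amplification of RNA from few cells, whereas the study's methods name the TruSeq kit. The labels number the samples of each group 1 to 3 without saying that they came from separate animals, so p-values measure the spread between these samples, which may in part be technical.

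Before a cell enters S phase, the origin recognition complex marks origins of replication and, with Cdc6 and Cdt1, loads the MCM helicase in an inactive form. Kinases then switch the helicase on through Cdc45 and the GINS complex, and the polymerases copy both strands while PCNA holds them on the template. Many of these genes are transcribed under E2F factors as cells leave quiescence, and adult HSCs are known to be mostly quiescent.

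Libraries differed in depth, so that 3 counts stood for 0.632, 0.369 and 0.848 CPM in the libraries labelled WT replicates 1, 2 and 3. In KO the same 3 counts stood for 0.630, 0.568 and 0.584 CPM. This floor covers counting error only. Within a group, the spread between each pair of libraries exceeded what counting alone gives (chi-square divided by degrees of freedom from 25.7 to 53.2), and each library was kept as a replicate. Levels between libraries are given below as normalised CPM (counts scaled to effective library sizes by TMM), and levels between genes as FPKM, which divides by gene length.

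Med23 itself (chromosome 10 from 24869986 to 24913681, GRCm38) was counted at 47.6, 70.8 and 24.1 normalised CPM in the libraries labelled WT replicates 1 to 3. In KO replicates 1 to 3 it was at 31.6, 29.8 and 36.8 normalised CPM. At this gene the library labelled WT replicate 3 was therefore below all 3 KO libraries and went against its label. In summed skeletal muscle genes, given below, that library was at 500.1 normalised CPM, on the side of its label. The other WT libraries were at 282 and 198, and KO replicates 1 to 3 at 14.2, 42.8 and 12.5. Whether a label is wrong was not tested. The log2 fold change of Med23 was -0.54 (SE 0.41, adjusted p = 0.989 by edgeR's quasi-likelihood test with Benjamini-Hochberg adjustment). It was -0.85 without the library labelled WT replicate 3, -0.13 without WT replicate 2 and -0.93 without both libraries numbered 3. Counts over the whole gene do not isolate the deleted part of the transcript, so they are a weak check of the genotype.

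Libraries numbered 3 stood apart in other ways too. Counts of 4 Y-linked genes (Ddx3y, Eif2s3y, Kdm5d and Uty) summed to 1036, 1855 and 1 in WT and to 1529, 1606 and 0 in KO. Xist was counted 4819 times in the library labelled WT replicate 3 and 7853 times in KO replicate 3, against at most 111 counts elsewhere. KO replicate 3 also held 867 counts of the granule gene Mpo, whereas the other KO libraries held 14 and 7. The library labelled WT replicate 3 had the lowest depth, and Gm26917 and Gm42418 together took 18.1% of its counts. What these differences contribute to the replication genes was not tested, and main results are also given without both libraries, an alternative chosen after seeing the data. Leaving out only 1 library numbered 3 puts high Xist counts in 1 group alone, which that fit cannot separate from genotype.

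All 48 replication genes had at least 1 count in all 6 libraries, Ccne1 with under 3 in 3 of them. Their mean FPKM over the libraries ranged from 0.289 for Ccne1 to 87.4 for Mcm6, with a median of 9.75, against 6.72 over all genes tested. Mcm6 lay at the 96.8th percentile of tested genes by mean FPKM, followed among the replication genes by Gins4 (44.5), Pold2 (43.7), Rfc2 (32.9) and Mcm5 (31.8). At the other end, Orc1 (1.65), Ccne2 (1.30) and Mcm10 (0.998) were the lowest of the genes that passed the filter. Together the 48 genes took 0.421, 0.320 and 0.277% of the counts in the WT libraries, against 0.335, 0.367 and 0.319% in the KO libraries. The groups overlapped in this share.

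**Figure D1:**
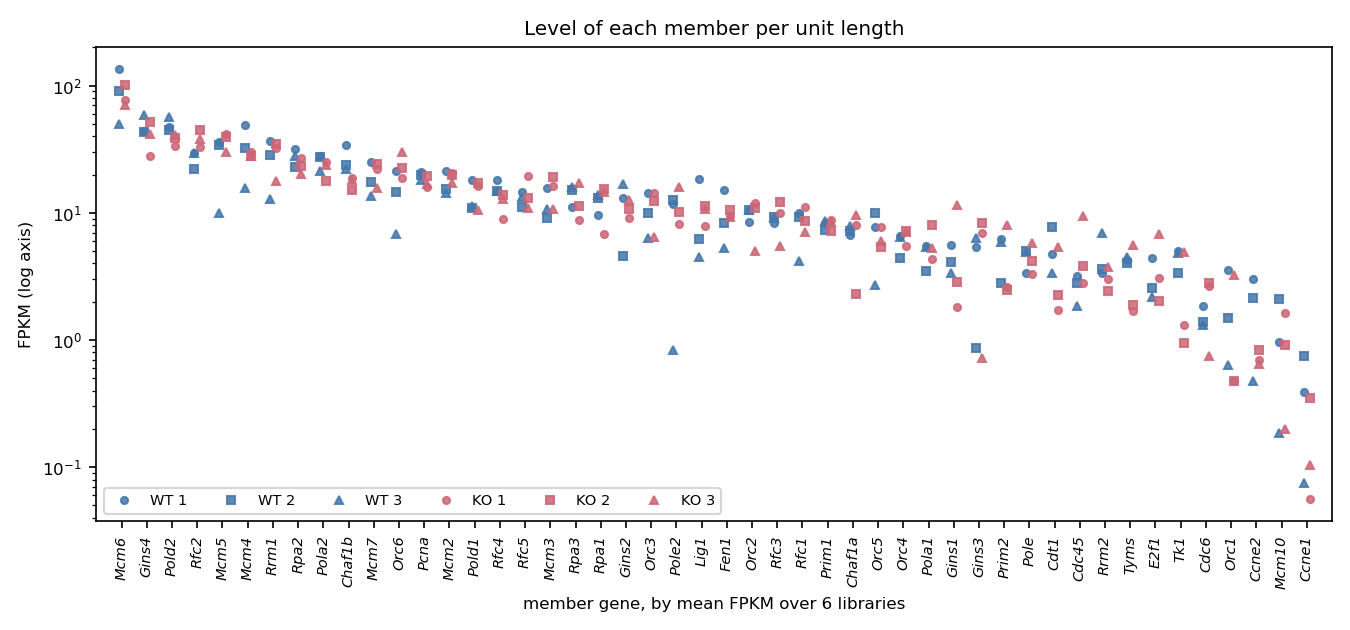
FPKM of the 48 replication genes in each library on a log axis, ordered by mean FPKM, with WT in blue, KO in red and replicate number by symbol. Levels span from a mean of 87.4 for Mcm6 to 0.289 for Ccne1, and WT and KO symbols intermix for most genes.

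No replication gene differed between Med23-deficient and WT HSCs at an adjusted p under 0.05. By edgeR's quasi-likelihood test with Benjamini-Hochberg adjustment the count was 0 of 47, and the smallest adjusted p was 0.708, for Chaf1b. Over all 12513 genes tested 9 passed, or 0.0719%, with 2 higher and 7 lower in KO. DESeq2, which called 120 genes in all, also called 0 replication genes. At an unadjusted p under 0.05, 1 replication gene was lower (Chaf1b) and 0 were higher, against 2.77% of all tested genes lower and 2.94% higher. DESeq2 gave the same count of 1 at that threshold, beside 6.74% of all genes it tested. Leaving out 1 library gave 1 gene without WT replicate 1 (Lig1), 1 without WT replicate 2 (Chaf1b) and 3 without the library labelled WT replicate 3 (Rfc2, Ccne2 and Chaf1b), while 6.35, 5.69 and 6.92% of all tested genes were at that level. It gave 2 without KO replicate 1 (Rfc2 and Chaf1b), 0 without KO replicate 2 and 3 without KO replicate 3 (Tyms, Tk1 and Chaf1b), beside 5.22, 4.85 and 5.70% of all tested genes. With both libraries numbered 3 left out there were 5 of 47, all lower (Orc1, Tyms, Tk1, Ccne2 and Chaf1b), beside 6.48% of all tested genes. These counts are given as a description and not as a result about the replication genes. The count past adjusted p 0.05 was 0 in each case.

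Point estimates were split, with 21 of 47 higher and 26 lower in KO. Their median log2 fold change was -0.04, against -0.01 over all tested genes. It was 0.15 without WT replicate 1 and -0.18 without both libraries numbered 3. For 4 replication genes (Chaf1b, Pold2, Pcna and Rfc4) every KO library lay below every WT library, and for 0 every KO library lay above. Over all tested genes 6.15% were without overlap and lower and 6.25% without overlap and higher. With 1 library left out, groups of fewer libraries separate more easily, and 8, 5, 8, 8, 4 and 14 replication genes were without overlap when WT replicates 1, 2 and the library labelled WT replicate 3, or KO replicates 1, 2 and 3, were left out in turn. The share of all tested genes then lay between 20.5 and 23.6%. Without both libraries numbered 3 it was 22 replication genes, 7 higher and 15 lower, beside 36.2% of all tested genes. The 95% confidence interval of the fold change lay within 2-fold in either direction for 22 of the 47 genes. The same held for 4032 of all 12513 tested genes. For the other replication genes a change of 2-fold was not excluded. In bulk RNA, fewer cells that express a gene and less of its RNA per cell cannot be told apart.

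**Figure D2:**
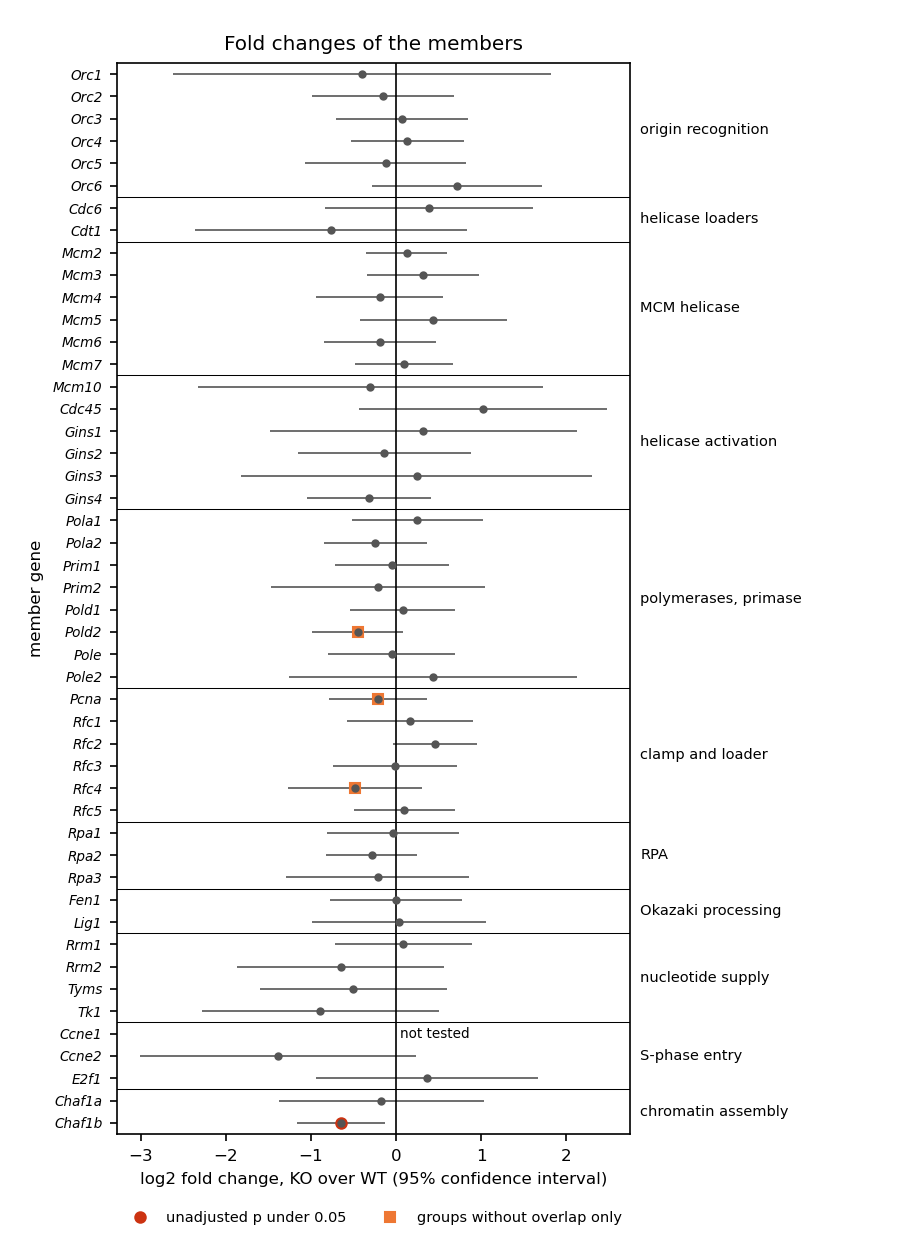
Log2 fold change of each replication gene, KO over WT, with its 95% confidence interval, grouped by role. The interval leaves 0 for Chaf1b only, and the orange squares mark Pold2, Pcna and Rfc4, whose groups did not overlap.

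Among the 6 subunits of the origin recognition complex, which binds origins, Orc6 had both the highest mean FPKM (19.0) and the smallest unadjusted p. It was counted at 34.2, 24.2 and 12.4 normalised CPM in WT and at 30.0, 35.7 and 51.6 in KO. KO replicate 3 was the highest library and the library labelled WT replicate 3 the lowest, while the groups overlapped. For Orc6 the log2 fold change was 0.72 (SE 0.45, unadjusted p = 0.14 by edgeR). Orc1, the subunit most tied to cycling cells, was at 15.4, 6.51 and 3.09 normalised CPM in WT and at 2.03, 2.00 and 14.97 in KO. Its spread within each group was therefore wider than the difference between them. Estimates for the 6 subunits ranged from -0.40 to 0.72 on the log2 scale, with 3 higher and 3 lower.

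The helicase loaders Cdc6 and Cdt1 went in opposite directions by their estimates. Cdt1, which brings the MCM helicase to origins, was at 10.05, 17.0 and 8.04 normalised CPM in WT and at 3.65, 4.73 and 12.3 in KO. KO replicates 1 and 2 were below all WT libraries, but KO replicate 3 was within the WT range. Cdt1 had a log2 fold change of -0.76 (SE 0.72, unadjusted p = 0.31 by edgeR), and Cdc6, which recruits Cdt1 and MCM, had 0.39 (SE 0.55).

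The 6 subunits of the MCM helicase, the motor that unwinds DNA, had mean FPKM from 13.5 (Mcm3) to 87.4 (Mcm6). All 6 were above the median of 9.75 over the 48 replication genes. E2F words (TTTCGCGC, TTTGGCGC, TTTCCCGC or TTTGCCGC), CCAAT and TTTGAA were searched on both strands of RefSeq promoters (GRCm38.p6), from 250 bases before to 50 after each start. Of the 48 replication genes, 40 had 1 or more entries. Those without were Mcm4, Gins1, Gins2, Gins4, Prim2, Pole, Rfc2 and Ccne2. An E2F word was found in 29.2% of their 48 promoters, against 2.26% of all 32851 promoters of the same length. CCAAT was found in 54.2% against 37.4%, and TTTGAA in 10.4% against 17.9%. A match is a description of the letters and says nothing on binding in these cells. The 150 bases before the start are printed for Mcm6, the most abundant of the genes, for Mcm5 and Mcm3, which also hold an E2F word within their 300 bases, and for Chaf1b, which had the smallest unadjusted p of the 47. Capitals mark E2F words and CCAAT on either strand. No exon of the GENCODE M21 annotation overlaps these windows.
Mcm6: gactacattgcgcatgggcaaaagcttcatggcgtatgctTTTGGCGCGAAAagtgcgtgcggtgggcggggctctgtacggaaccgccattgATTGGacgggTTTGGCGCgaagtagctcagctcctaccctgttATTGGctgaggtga
Mcm5: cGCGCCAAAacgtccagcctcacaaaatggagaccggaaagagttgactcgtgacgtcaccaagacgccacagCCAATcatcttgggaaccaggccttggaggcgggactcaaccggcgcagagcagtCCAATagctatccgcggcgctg
Mcm3: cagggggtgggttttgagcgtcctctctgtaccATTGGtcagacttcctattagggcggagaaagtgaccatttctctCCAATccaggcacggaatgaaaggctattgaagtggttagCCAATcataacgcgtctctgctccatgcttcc
Chaf1b: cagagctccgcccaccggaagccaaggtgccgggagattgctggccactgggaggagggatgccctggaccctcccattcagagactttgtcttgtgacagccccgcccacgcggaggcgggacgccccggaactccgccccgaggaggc
They lie at chr1:128359706-128359855 (minus strand), chr8:75109359-75109508 (plus strand), chr1:20820313-20820462 (minus strand) and chr16:93883751-93883900 (plus strand), and are written 5′ to 3′ along the strand of the gene. In Mcm6, E2F words begin 110, 106 and 47 bases before the start, and the first and second of them overlap. In Mcm5 an E2F word begins 149 bases before the start. The Mcm3 window holds 3 CCAAT words, and the Chaf1b window holds none of the words searched.

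Mcm6 (chromosome 1 from 128331590 to 128359664) was at 772, 525 and 316 normalised CPM in WT and at 432, 566 and 423 in KO. WT replicate 1 was the highest and the library labelled WT replicate 3 the lowest, with all KO libraries between them. Between groups the log2 fold change was -0.18 (SE 0.30, unadjusted p = 0.55), and 0.17 without WT replicate 1, so its sign rested on that library. Mcm4 behaved alike, at 171, 115 and 61.5 normalised CPM in WT and at 104, 97.2 and 104 in KO, with a log2 fold change of -0.19 that was 0.20 without WT replicate 1.

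Mcm5 was at 121, 117 and 37.1 normalised CPM in WT and at 137, 129 and 106 in KO. The estimate of 0.44 (SE 0.39, unadjusted p = 0.29) came with 1 low WT library, the library labelled WT replicate 3, and the groups overlapped. Mcm2 was at 187, 138 and 140.3 normalised CPM in WT and at 178, 171 and 159.7 in KO. Mcm3 was at 102, 61.1 and 78.8 in WT and at 105, 122 and 74.1 in KO. Mcm7 was at 166, 119 and 101 in WT and at 144, 157 and 111 in KO. The groups overlapped for each of these genes, and their log2 fold changes were 0.13, 0.32 and 0.09. The MCM genes were not at equal levels: by FPKM, Mcm6 exceeded Mcm3 by between 4.62-fold and 9.91-fold in the 6 libraries.

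Among the factors that turn the loaded helicase on, Cdc45, a partner of the MCM ring at the fork, had the smallest unadjusted p. It was at 9.02, 8.23 and 5.87 normalised CPM in WT and at 7.90, 10.7 and 28.5 in KO. KO replicate 3 alone was far above the rest, and KO replicate 1 lay within the WT range. Cdc45 had a log2 fold change of 1.02 (SE 0.66, unadjusted p = 0.15). Gins4, a GINS subunit and the most abundant gene of this role, was at 58.8, 58.4 and 87.5 normalised CPM in WT and at 37.1, 67.5 and 59.1 in KO. The library labelled WT replicate 3 was the highest and KO replicate 1 the lowest, and the log2 fold change of Gins4 was -0.32 (SE 0.33). Estimates for Mcm10, Gins1, Gins2 and Gins3 lay between -0.30 and 0.32, each with a confidence interval that crossed 0. Gins2 shares 67.3% of its exonic bases with Gse1 on the opposite strand, and without a stated strand setting their reads cannot be told apart.

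The 8 subunits of the polymerases and primase had estimates from -0.45 to 0.44, with 3 higher and 5 lower. Pold2, the second subunit of the lagging-strand polymerase delta, was the most abundant of them (mean FPKM 43.7) and had the smallest unadjusted p. It was at 123, 122 and 168 normalised CPM in WT and at 87.5, 100.3 and 115 in KO. Every KO library lay below every WT library, with KO replicate 3 and WT replicate 2 the closest pair. Pold2 averaged 138 ± 26.3 normalised CPM in WT and 101 ± 13.5 in KO (SD, n = 3 in each group). Its log2 fold change was -0.45 (SE 0.24, 95% confidence interval -0.98 to 0.09, unadjusted p = 0.092 by edgeR). Pole2, a subunit of the leading-strand polymerase epsilon, was counted only 5 times in the library labelled WT replicate 3 and between 66 and 173 times in the other libraries.

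Pcna, the sliding clamp that tethers polymerases to DNA, was at 71.6, 69.1 and 69.5 normalised CPM in WT and at 53.9, 66.2 and 61.1 in KO. The WT libraries were tightly grouped and every KO library lay below them, KO replicate 2 by the least. Pcna averaged 70.1 ± 1.32 normalised CPM in WT and 60.4 ± 6.21 in KO (SD, n = 3 in each group). Its log2 fold change was -0.21 (SE 0.26, 95% confidence interval -0.79 to 0.36, unadjusted p = 0.43 by edgeR). By FPKM, which has no TMM scaling, the Pcna groups overlapped. Pcna has annotated pseudogenes, Pcna-ps1 and Pcna-ps2, which could share its reads.

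The clamp loader, RFC, opens the clamp and places it on primed DNA. Its subunit Rfc2 was the most abundant gene of this role and had the smallest unadjusted p in it. Rfc2 was at 219, 169 and 248 normalised CPM in WT and at 241, 330.5 and 299.9 in KO. KO replicates 2 and 3 were above all WT libraries, whereas KO replicate 1 was just below the library labelled WT replicate 3. For Rfc2 the log2 fold change was 0.46 (SE 0.22, 95% confidence interval -0.04 to 0.95, unadjusted p = 0.067 by edgeR). By FPKM every KO library of Rfc2 lay above every WT library. Rfc2 shares 15.1% of its exonic bases with Lat2 on the opposite strand.

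Another subunit, Rfc4, had an estimate of the other sign. It was at 42.9, 35.6 and 39.6 normalised CPM in WT and at 20.9, 31.8 and 32.0 in KO. All KO libraries were below all WT libraries, KO replicate 1 the most. The log2 fold change of Rfc4 was -0.48 (SE 0.36, 95% confidence interval -1.27 to 0.31, unadjusted p = 0.21 by edgeR). Rfc4 shares 12.7% of its exonic bases with Eif4a2 on the opposite strand. Estimates for Rfc1, Rfc3 and Rfc5 lay between -0.01 and 0.17. The subunits of this complex thus had estimates on both sides of 0, and the difference between subunits was not tested.

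RPA coats the single-stranded DNA behind the helicase. Its middle subunit Rpa2, the most abundant of the 3 by FPKM, was at 127, 94.4 and 126 normalised CPM in WT and at 107, 92.1 and 85.8 in KO. The groups overlapped at WT replicate 2 and KO replicate 1, and the log2 fold change of Rpa2 was -0.28 (SE 0.24, unadjusted p = 0.27). Estimates for all 3 RPA subunits were below 0, at -0.28 for Rpa2, -0.22 for Rpa3 and -0.04 for Rpa1, none of them past the threshold.

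Fen1 and Lig1, the nuclease and the ligase that join Okazaki fragments, had log2 fold changes of 0.00 and 0.03. Lig1 was at 114, 39.8 and 31.5 normalised CPM in WT and at 49.0, 70.1 and 71.0 in KO. WT replicate 1 was the highest of all libraries and the other WT libraries were the lowest. Without WT replicate 1, Lig1 was at an unadjusted p under 0.05 and higher in KO, with an adjusted p of 0.779 by edgeR's quasi-likelihood test with Benjamini-Hochberg adjustment. Fen1 shares 78.8% of its exonic bases with the antisense gene Gm10143.

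Of the genes that supply deoxynucleotides, Rrm1, the large subunit of ribonucleotide reductase, was the most abundant. It was at 143, 113 and 55.6 normalised CPM in WT and at 124, 134 and 74.1 in KO. Both libraries numbered 3 were the lowest of their group, the groups overlapped, and the log2 fold change of Rrm1 was 0.09 (SE 0.36). Tk1, thymidine kinase of the salvage pathway and a gene of cycling cells, was at 36.3, 24.7 and 38.9 normalised CPM in WT and at 9.32, 6.73 and 37.8 in KO. KO replicates 1 and 2 were far below the WT libraries, while KO replicate 3 lay among them. For Tk1 the log2 fold change was -0.89 (SE 0.63, unadjusted p = 0.19).

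Tyms, which makes thymidylate, had the same order of libraries in part, at 43.5, 42.2 and 51.0 normalised CPM in WT and at 17.0, 18.9 and 60.5 in KO. Without KO replicate 3, Tk1, Tyms and Chaf1b were at an unadjusted p under 0.05, all lower in KO, and the smallest adjusted p of the replication genes, for Tk1, was 0.629 by edgeR's quasi-likelihood test with Benjamini-Hochberg adjustment. Tyms has an annotated pseudogene, Tyms-ps, which could share its reads. Estimates for Rrm2 and Tyms in all libraries were -0.65 and -0.50. KO replicate 3 was the library with the Mpo counts given above.

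Among the regulators of S-phase entry, E2f1, a transcription factor that drives replication genes, was at 20.1, 12.04 and 11.1 normalised CPM in WT and at 13.8, 9.10 and 33.0 in KO. KO replicate 3 was the highest and KO replicate 2 the lowest library, so the KO libraries spanned the whole WT range. E2f1 had a log2 fold change of 0.37 (SE 0.59, unadjusted p = 0.55 by edgeR) and of -0.33 without KO replicate 3. Ccne2, a cyclin E that activates Cdk2, was at 22.8, 16.7 and 4.02 normalised CPM in WT and at 5.27, 6.19 and 5.26 in KO. The KO libraries were alike and below WT replicates 1 and 2, but above the library labelled WT replicate 3. The log2 fold change of Ccne2 was -1.38 (SE 0.73, 95% confidence interval -3.00 to 0.24, unadjusted p = 0.087 by edgeR). Leaving out the library labelled WT replicate 3 gave -1.82 (unadjusted p = 0.012 by edgeR). Ccne2 shares 17.4% of its exonic bases with Ints8 on the opposite strand.

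Chaf1b (chromosome 16 from 93883901 to 93906115) encodes the middle subunit of CAF-1, the chaperone that deposits histones on newly copied DNA. It was counted 1103, 1329 and 530 times in WT and 611, 548 and 640 times in KO, or 226, 163 and 164 normalised CPM in WT and 124, 99.7 and 129.5 in KO. Every KO library lay below every WT library, KO replicate 2 being the lowest and WT replicate 1 the highest. Chaf1b averaged 184 ± 36.1 normalised CPM in WT and 118 ± 15.8 in KO (SD, n = 3 in each group). Its log2 fold change was -0.65 (SE 0.23, 95% confidence interval -1.16 to -0.13), with an unadjusted p of 0.018 and an adjusted p of 0.708 by edgeR's quasi-likelihood test with Benjamini-Hochberg adjustment. Without WT replicate 1 the unadjusted p was 0.080 and without KO replicate 2 it was 0.079 by edgeR. Chaf1a, the large subunit of the same complex, had a log2 fold change of -0.17 (SE 0.54). Chaf1a shares 52.5% of its exonic bases with Ubxn6 on the opposite strand, so its counts are uncertain.

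**Figure D3:**
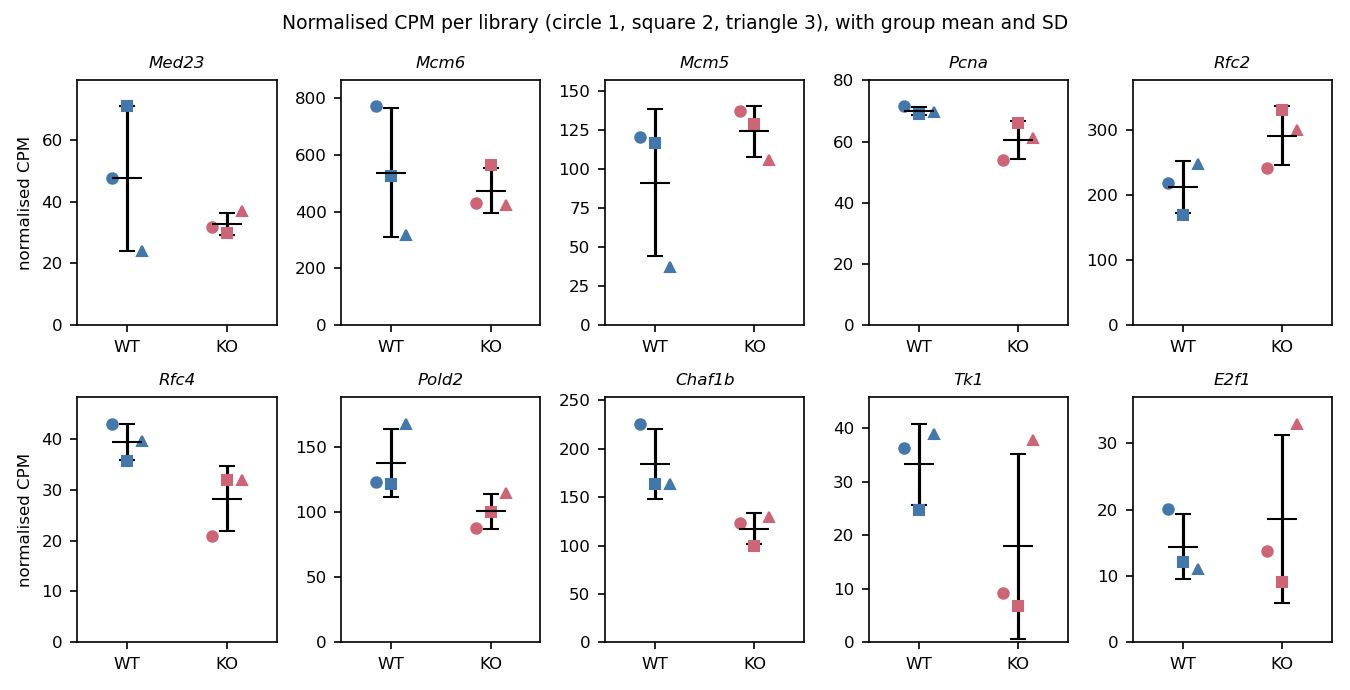
Normalised CPM of Med23 and of 9 replication genes in each library, with points for libraries and bars for the group mean and SD (n = 3). Pcna, Rfc4, Pold2 and Chaf1b have KO libraries below all WT libraries, and in Tk1 and E2f1 the triangle of KO replicate 3 stands apart from KO replicates 1 and 2.

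The replication genes varied within each group, and the extreme libraries were not of a single group. The library labelled WT replicate 3 was the lowest of the 6 for 14 of the 48 genes (29.2%, against 24.6% of all tested genes), and KO replicate 1 for 11 (22.9%, against 16.8%). WT replicate 1 was the highest for 15 genes (31.2%, against 18.2% of all tested genes) and the lowest for 0. KO replicate 3 was the highest for 12 genes (25.0%, against 16.3% of all tested genes), among them Cdc45, Gins1, Prim2, Tyms and E2f1. The median within-group SD of log2(normalised CPM + 1) was 0.50 for the tested replication genes and 0.48 for all tested genes.

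**Figure D4:**
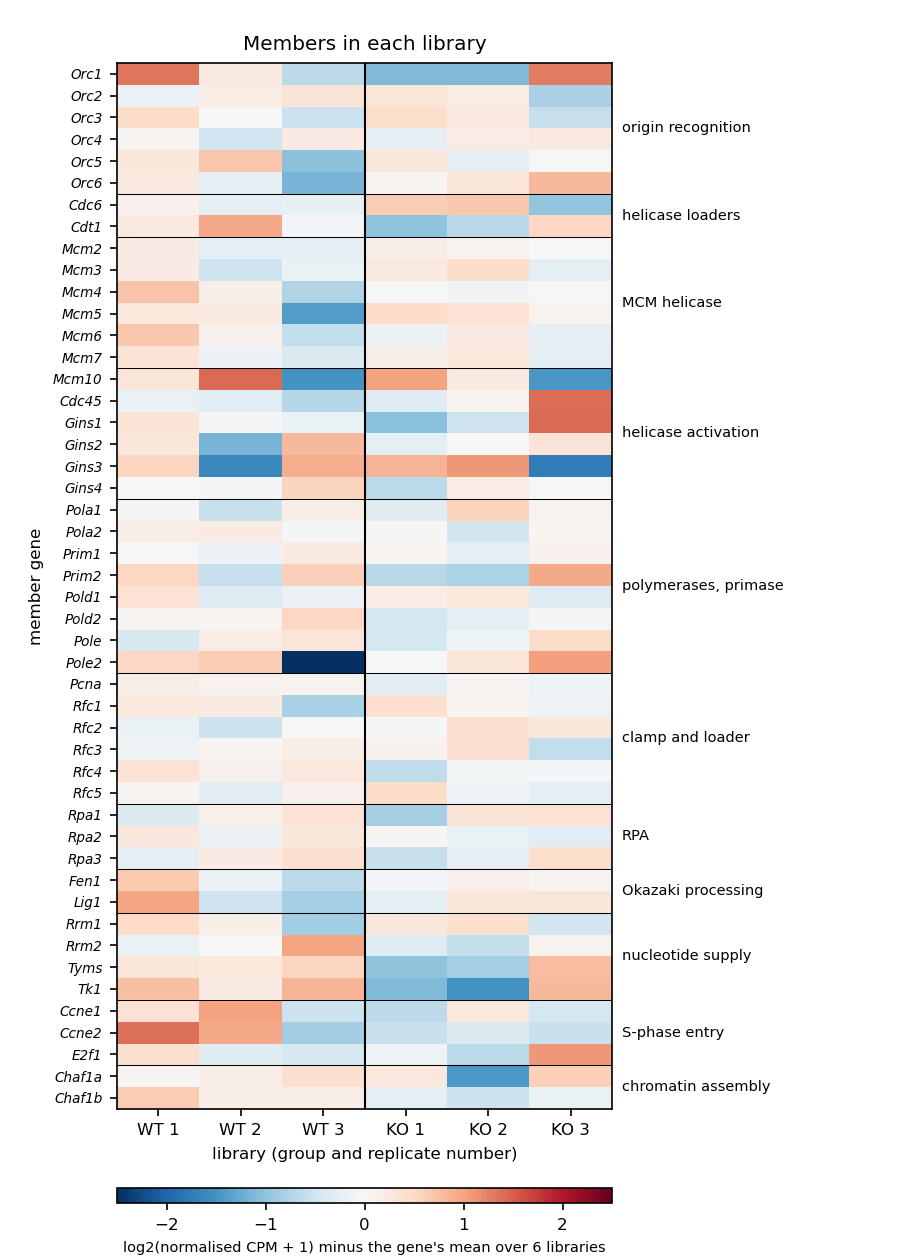
Log2(normalised CPM + 1) of each replication gene minus its own mean over the 6 libraries, with genes in rows by role and libraries in columns. No role has KO columns of a single colour against WT columns of the other, and KO replicate 3 is red for Gins1 and Orc1 where KO replicates 1 and 2 are not.

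The module score of a library was the mean of log2(normalised CPM + 1) over all 48 genes. WT libraries scored 5.67, 5.40 and 5.23, and KO libraries scored 5.25, 5.33 and 5.47. WT replicate 1 was the highest and the library labelled WT replicate 3 the lowest, so the KO libraries all fell inside the WT range. The score averaged 5.43 ± 0.23 in WT and 5.35 ± 0.11 in KO (SD, n = 3 in each group), a difference of -0.08, smaller than either SD. Without WT replicate 1 the difference was 0.04, and without both libraries numbered 3 it was -0.24. By summed CPM the 48 genes reached 4101, 3198 and 3032 in WT and 3229, 3531 and 3308 in KO. By summed FPKM they reached 837, 659 and 573 in WT and 650.0 and 725 in KO replicates 1 and 2, and 660.4 in KO replicate 3.

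**Figure D5:**
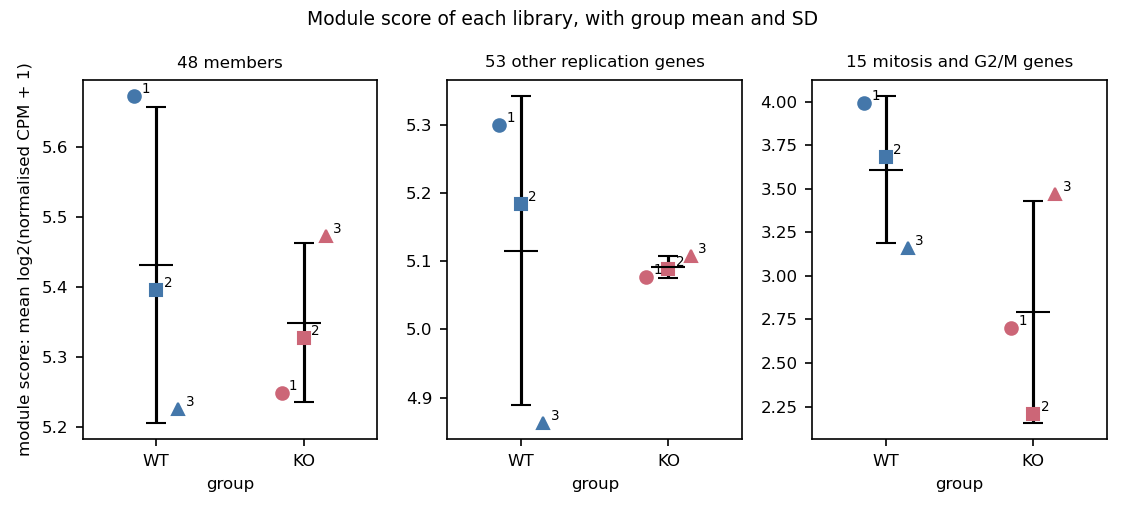
Module score of each library for the 48 replication genes, for 53 other replication genes and for 15 mitosis and G2/M genes, with points numbered by replicate and bars for the group mean and SD (n = 3). In the left panel KO lies between 5.25 and 5.47, within the WT range of 5.23 to 5.67; the vertical axes differ and do not start at 0.

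The 53 other genes of replication, such as Topbp1, Clspn, Timeless and Gmnn, gave a like picture. Of 52 tested, 0 were past the threshold by edgeR or DESeq2, and 0 were at an unadjusted p under 0.05 by either. Their median log2 fold change was -0.11, with 22 estimates higher and 30 lower. The smallest unadjusted p was 0.088, for Dnmt1, the methyltransferase that copies DNA methylation at the fork. Dnmt1 was at 433, 299 and 212 normalised CPM in WT and at 216, 236 and 220.4 in KO. WT replicates 1 and 2 were above the KO libraries and the library labelled WT replicate 3 was below them. Without that library 5 of these genes (Dna2, Top2a, Uhrf1, Dnmt1 and Hells) were at an unadjusted p under 0.05, beside 6.92% of all tested genes, and without KO replicate 3 only Ccna2 was. The cyclin Ccna2 was at 19.5, 15.1 and 18.9 normalised CPM in WT and at 6.89, 3.09 and 13.6 in KO (log2 fold change -1.18, SE 0.63). It was 1 of 3 of these genes lower without overlap (with Nasp and Rnaseh2b), and 1 was higher (Cdk2), against 6.15 and 6.25% of all tested genes.

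Mitosis and G2/M genes had lower estimates in KO for 12 of 14 tested, against 6318 of 12513 for all tested genes. Their median was -0.76 on the log2 scale, against -0.01 over all tested genes. Of the 14, 1 was lower without overlap (Ube2c), against 6.15% of all tested genes. None of the 14 was past the threshold by edgeR, 0 were at an unadjusted p under 0.05, and DESeq2 also gave 0 for both. Their module score was 3.99, 3.68 and 3.16 in WT and 2.70, 2.21 and 3.47 in KO. KO replicates 1 and 2 were below all WT libraries and KO replicate 3 was within the WT range. Mki67, a proliferation marker, was at 20.7, 85.9 and 43.0 normalised CPM in WT and at 13.6, 9.28 and 44.3 in KO (log2 fold change -1.16, SE 0.65, unadjusted p = 0.11). Without KO replicate 3, 5 genes (Mki67, Ccnb2, Nusap1, Cdc20 and Bub1, the last of which did not pass the filter in all libraries) were at an unadjusted p under 0.05, beside 5.70% of all tested genes. Without WT replicate 1 only Mki67 was, and only Bub1 was without the library labelled WT replicate 3, KO replicate 1 or KO replicate 2.

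Markers of the sorted cells and of other cells are given beside these results, and their part in them was not tested. The 11 HSC identity genes, all tested, summed to 2654, 2982 and 2895 normalised CPM in WT and 2711, 2609 and 2610.4 in KO, Kit being the most abundant by FPKM. By edgeR 0 of them passed adjusted p 0.05. At an unadjusted p under 0.05, 3 were lower (the sort marker Ly6a, Esam and Hlf) and 2 were higher (Mecom and Meis1), against 2.77 and 2.94% of all tested genes. Without overlap, 4 were lower (Ly6a, Esam, Hlf and the sort marker Kit) and 1 was higher (Mecom), against 6.15 and 6.25% of all tested genes. Progenitor genes summed to 431, 567 and 519 normalised CPM in WT and 873, 742 and 1103 in KO. Of 10 listed 5 were tested, all with higher estimates, 0 of them past adjusted p 0.05. Prtn3, the most abundant by FPKM, came closest (log2 fold change 1.63, adjusted p = 0.0647 by edgeR's quasi-likelihood test with Benjamini-Hochberg adjustment). Of the 5 tested, 2 were higher without overlap (Prtn3 and Cd34), against 6.25% of all tested genes. Of those not tested, Dntt, Cd48 and Ms4a3 averaged 2.27, 1.83 and 1.75 normalised CPM in WT and 0, 0 and 1.21 in KO. Ctsg and Elane averaged 1.05 and 1.44 in WT and 5.78 and 8.07 in KO, with KO replicate 3 at 16.8 and 23.3. Cd34, which the sort selects against, was at 296, 360.1 and 343 normalised CPM in WT and 519.7, 384 and 414 in KO. In the library labelled WT replicate 3 both Mpo and Cd48 were at 0. Mpo was also at 0 in WT replicate 2, and Cd48 in all KO libraries. Mature granulocyte genes summed to at most 11.5 normalised CPM in any library, with S100a9 the most abundant by FPKM and Ltf and Mmp8 at 0 throughout. The 7 erythroid genes summed to 45.5, 31.2 and 66.4 normalised CPM in WT and 32.8, 27.3 and 59.9 in KO, with Hbb-bt the most abundant by FPKM and Car1 at 0 in 5 libraries. Of the 3 erythroid genes tested, 1 had a higher estimate (Hbb-bt) and 2 a lower one (Klf1 and Alas2), none of them at an unadjusted p under 0.05. B cell genes summed to between 49.0 and 89.6, most from Cd79b, with Ms4a1 at 0 throughout. T cell genes summed to between 9.12 and 29.9, Thy1 being the most abundant by FPKM, with Cd3e, Cd3d, Cd3g and Cd8a at 0 throughout. Skeletal muscle genes summed to 282, 198 and 500.1 in WT and 14.2, 42.8 and 12.5 in KO, with Acta1 the most abundant by mean FPKM. In raw counts Acta1 was at 158, 195 and 188 in WT, whose libraries differed in depth, and at 1, 0 and 1 in KO. The muscle signal followed the groups, so what it contributes cannot be told apart from genotype. Of 17 muscle genes tested, 3 were lower in KO past adjusted p 0.05 by edgeR, against 0.0719% of all tested genes in either direction. At an unadjusted p under 0.05, 15 were lower, and 15 were lower without overlap, against 2.77 and 6.15% of all tested genes. Of the 20 listed, 10 were at 0 in all KO libraries, and those of them that were tested passed the filter only through WT. The muscle list was also chosen with earlier results of these data known. Its counts are therefore a description and not a test, and the shares of all tested genes are no measure of them.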

How the data were processed

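Bulk RNA-seq of HSCs was analysed in 3 WT and 3 KO samples, grouped by the sample labels. The authors deposited raw read counts per gene and FPKM values; the submitters' processing notes name TopHat, HTSeq and mm10, and strand setting and annotation were not given in the sources used here. Where no library had under 10 counts (10368 genes), the deposited FPKM equal the counts divided by a length per gene and by column total, within 0.00713%.

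Counts were fitted in R 4.3.3 with edgeR 4.0.16 (filterByExpr, TMM, robust quasi-likelihood test, Benjamini-Hochberg adjustment at 0.05 over all 12513 genes passing the filter). The fit was checked on simulated counts, whose planted log2 changes were larger than any estimate of the replication genes. That check therefore does not show whether changes of their size would be called. Log2 fold changes are KO over WT. A symbol with several identifiers was given to that with most counts. Alternatives were DESeq2 1.42.0, upper-quartile scaling, no filter, at least 10 counts in every library, the replicate number as a block, limma 3.58.1 on log2(FPKM + 1) or log2(FPKM + 0.1), and each library left out. For the module score, log2(CPM + 0.25) and only genes past the filter were also used. Coordinates came from GENCODE M21 and promoters from RefSeq (GRCm38.p6).

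Named with values in each library are Med23, E2f1, Mcm2 to Mcm7, Pcna, in each role the gene with the highest mean FPKM and that with the smallest unadjusted p, and genes at an unadjusted p under 0.05 or without overlap. Orc1, Tyms, Pole2, Dnmt1, Ccna2, Mki67 and library-level genes were added after their values were seen. The members and lists were chosen with earlier results of these data known. Med23 and the other lists (other replication, mitosis and G2/M, HSC identity, progenitor, erythroid, mature granulocyte, B cell, T cell and skeletal muscle genes) were fitted with all genes; the HSC identity and erythroid lists were each shortened by 1 gene after values were seen.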

Additional observations from a re-analysis of the deposited data

How the results depend on the processing

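The count of 0 replication genes past adjusted p 0.05 held under DESeq2, upper-quartile scaling, both other filters, all 3 FPKM settings, the replicate block and each library left out. The count at an unadjusted p under 0.05 was 1, and 2 with at least 10 counts in every library (Ccne2 and Chaf1b), beside 5.63% of all genes then tested. It ranged from 0 to 3 with each library left out (0 without KO replicate 2; 3 without KO replicate 3 or the library labelled WT replicate 3). Genes without overlap ranged from 4 to 14, where fewer libraries give more. With 1 library left out the median log2 fold change ranged from -0.11 to 0.15, the highest without WT replicate 1, and with both libraries numbered 3 left out it was -0.18. Other replication genes at an unadjusted p under 0.05 ranged from 0 to 5 and mitosis and G2/M genes from 0 to 5; without a filter 1 of the latter passed (Bub1, which did not pass the filter with all libraries but passed it with some left out), beside 7.08% of all genes. Genes of all kinds past adjusted p 0.05 were 9, but 120 by DESeq2 and 15 on log2(FPKM + 1) for genes at a mean FPKM of 1 or more, 5 to 11 with a library left out and 6 with both libraries numbered 3 left out. With both libraries numbered 3 left out, chosen after seeing the data, 5 replication genes (Orc1, Tyms, Tk1, Ccne2 and Chaf1b), 3 other replication genes and 5 mitosis and G2/M genes were at an unadjusted p under 0.05, beside 6.48% of all tested genes, and 22 replication genes were without overlap, as were 36.2% of all tested genes with 2 libraries a group. The causes were not tested.

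Of 21 replication genes followed by name, 15 kept their sign in every setting. Signs turned with libraries left out for Mcm4 (-0.49 to 0.20), Mcm6 (-0.45 to 0.17), Mcm7 (-0.053 to 0.32), Lig1 (-0.28 to 0.83), Rrm1 (-0.21 to 0.39) and E2f1 (-0.33 to 0.70), and with both libraries numbered 3 left out for Lig1 (-0.35) and E2f1 (-0.48). None was past the threshold in any setting.

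Replicate numbers were checked for pairing. Deviations of equal numbers from their group means correlated across genes at 0.191, 0.0346 and 0.192, so the numbers were not taken to pair the samples, although every library but WT replicate 2 correlated best with its own number. With the replicate block 2 replication genes (Tk1 and Chaf1b) were at an unadjusted p under 0.05, beside 8.03% of all tested genes, 0 were past adjusted p 0.05, and 5 genes of all kinds passed. The block gives no value for overlap or module score. Ccne1 had 1 count in 2 libraries, and the confidence intervals of Orc1, Mcm10 and Gins3 were the widest.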
